A study of Mus musculus with 8 samples.

Results

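Carboxylesterases are serine hydrolases that cleave ester, thioester and amide bonds in drugs, acylglycerols and other lipids. Most mouse members are held in the lumen of the endoplasmic reticulum, a few are secreted, and liver is the organ best known for them. Ces1d is the triacylglycerol hydrolase that mobilises stored fat in hepatocytes and adipocytes, Ces1c is the main esterase of mouse plasma, and Ces5a is a secreted esterase of the epididymal duct.

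The 10 carboxylesterase genes described here were Ces1b, Ces1c, Ces1d, Ces1e, Ces1f, Ces1g, Ces2a, Ces3a, Ces3b and Ces5a, taken by symbol from 19 carboxylesterase genes in a table of 19348 genes. RNA-seq had been carried out on liver and on epididymal white adipose tissue (eWAT), the fat depot next to the epididymis, of male C57BL/6 mice. Each tissue had 2 libraries labelled Crtc1-/- and 2 labelled Crtc1+/+, so 8 libraries in all. All mice were 12 weeks old, were kept on a normal diet and had been fasted for 16 h. The Crtc1-/- mice carried a CRISPR/Cas9 deletion in Crtc1, a coactivator of CREB, in the whole body and were compared with their Crtc1+/+ littermates. The comparison asks which genes differ with the loss of Crtc1 in each tissue.

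Levels are given as CPM, counts scaled to library size with TMM factors set within each tissue, and each library held between 16560070 and 19721464 counts. The CPM of eWAT and of liver are therefore not on a common scale, except where a scale over all 8 libraries is named. Levels of different members are compared with each other as FPKM, which takes transcript length into account. Levels per 1000 CPM of a marker list are in CPM. A gene is named as called where edgeR's quasi-likelihood test gave it an adjusted p below 0.05, after Benjamini-Hochberg correction across every gene tested. With 2 libraries against 2, a permutation test of a single gene cannot give a p below 0.333, and the p-values below measure the spread between 2 mice per group.

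The targeted gene itself was not lower in the libraries labelled Crtc1-/-. Crtc1 was at 58.5 and 33.6 CPM in the eWAT labelled Crtc1-/- against 32.5 and 33.7 CPM in the eWAT labelled Crtc1+/+. In liver it was at 22.1 and 18.0 CPM against 11.7 and 9.86 CPM. The counts cover the whole gene and do not check the deleted part, so genotypes are given as labels throughout. The tissue markers also differed between libraries. The summed level of 14 adipocyte markers was 44055 and 25476 CPM in the eWAT labelled Crtc1-/- and 2362 and 4118 CPM in the eWAT labelled Crtc1+/+. The summed level of 14 epididymis markers was 25.4 and 15.3 CPM against 67669 and 82592 CPM, and 0 of these 14 markers were at 0 counts in the eWAT labelled Crtc1+/+, against 3 and 1 at 0 counts in the eWAT labelled Crtc1-/-. The 13 hepatocyte markers summed to 6049 CPM and 128501 CPM in the eWAT labelled Crtc1-/- replicates 1 and 2, 5742 and 1135 CPM in the eWAT labelled Crtc1+/+, and 193461 to 225451 CPM in liver. Replicate 2 of the eWAT labelled Crtc1-/- therefore stood apart from the other 3 eWAT libraries, and results are given with and without it. In bulk tissue, fewer cells of a type and less RNA per cell cannot be told apart.

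All 10 genes lie on chromosome 8 of the mouse genome GRCm38, as does Crtc1 (70382355 to 70439579, minus strand). The 6 Ces1 members stand in a row on the minus strand, in the order Ces1b (93056728 to 93080017), Ces1c (93099015 to 93131283), Ces1d (93166068 to 93197838), Ces1e (93201218 to 93229619), Ces1f (93256236 to 93279747) and Ces1g (93302369 to 93337308). Ces5a (93499064 to 93535830) follows on the same strand, after Ces1h. Ces2a (104734003 to 104741634), Ces3a (105048601 to 105058413) and Ces3b (105083753 to 105093929) lie together 11198172 bp further on, on the plus strand.

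The sequences of a pair of members are close enough to bear on their counts. The coding sequences of Ces3a and Ces3b, each of 1713 nt, differ at 81 positions (95.3% identity), and their longest exact match runs over 194 nt. Of all 50-nt windows of the Ces3a transcript, 30.9% occur without a mismatch in a transcript of another Ces gene, and of those of Ces3b, 26.1% do. The first 120 coding bases from the start codon are shown as a stretch in which the genes differ, with the 16 differing positions in capitals. No more than 17 bases in a row are identical there, so no 50-nt window of it is shared.
Ces3a: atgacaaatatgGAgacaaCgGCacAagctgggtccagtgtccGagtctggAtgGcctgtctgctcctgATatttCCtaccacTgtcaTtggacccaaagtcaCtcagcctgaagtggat
Ces3b: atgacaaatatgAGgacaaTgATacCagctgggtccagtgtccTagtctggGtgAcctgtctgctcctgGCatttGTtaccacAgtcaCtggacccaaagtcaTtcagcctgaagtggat
The longest exact match, coding bases 514 to 707 of both genes, is shown as a stretch in which a 50-nt read would not tell them apart. It holds 145 shared windows.
Ces3a and Ces3b: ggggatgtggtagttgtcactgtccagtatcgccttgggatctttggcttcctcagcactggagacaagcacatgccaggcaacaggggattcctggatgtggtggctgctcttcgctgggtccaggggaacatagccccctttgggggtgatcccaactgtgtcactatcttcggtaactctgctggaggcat
Ces1c (13.4% of its windows shared) and Ces1b (10.8%) were the next most alike pair, with 91.1% coding identity, whereas Ces1d (1.28%), Ces1f (0.533%) and Ces5a (0%) shared few windows or none. How the counting tool divided shared reads is not given in the sources used here, so the levels of Ces3a and Ces3b, and to a lesser degree of Ces1b and Ces1c, are uncertain.

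Ces1b and Ces1c also share sequence before their start sites, and they are shown because theirs was the longest match among the members with a RefSeq entry. RefSeq entries for GRCm38.p6 gave the region before the start of 7 of the 10 genes (Ces1b, Ces1c, Ces1e, Ces1g, Ces2a, Ces3b and Ces5a). The stretches below are 120 bases on the minus strand, at chr8:93080018-93080137 for Ces1b, ending 1 base before its start, and at chr8:93131372-93131491 for Ces1c, ending 89 bases before its start. Capitals mark 58 bases that are identical in both.
Ces1b: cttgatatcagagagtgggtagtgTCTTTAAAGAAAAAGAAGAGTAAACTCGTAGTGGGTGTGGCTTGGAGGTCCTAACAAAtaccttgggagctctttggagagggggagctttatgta
Ces1c: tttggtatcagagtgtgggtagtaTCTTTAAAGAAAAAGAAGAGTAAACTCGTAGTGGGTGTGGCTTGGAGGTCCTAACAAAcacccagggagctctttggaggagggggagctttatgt
No other pair among the 7 regions shared more than 11 bases in a row. In the 250 bases before the start, on either strand, the CCAAT box (the letters CCAAT) was present in 6 of the 7 genes and in 33.8% of 32851 regions of the same length, and the TATA box (TATAAA) was present in Ces1g and Ces3b and in 12.4% of all regions. The letters GTTAAT were present in Ces3b and Ces5a (6.43% of all regions), and AGGTCA in Ces2a (14.0%). These matches describe the letters only.

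In the liver labelled Crtc1+/+ the carboxylesterase transcripts were led by Ces1c and Ces3a. Ces1c was at 1654 and 1582 FPKM in replicates 1 and 2, and Ces3a at 872 and 1196 FPKM, without overlap. Ces2a, a hydrolase of drugs and acylglycerols, followed at 243 and 217 FPKM. Ces1f (172 and 190 FPKM), Ces1d (152 and 185 FPKM) and Ces3b (84.2 and 184 FPKM) overlapped with their neighbours in that order, so their ranks were not resolved. Ces1b was at 101 and 76.7 FPKM, Ces1e, which anchors beta-glucuronidase in the endoplasmic reticulum, at 43.2 and 46.8 FPKM, and Ces1g at 42.0 and 37.6 FPKM. Ces5a was at 0.03 FPKM in both, from 1 count in each library, which is below the floor of 3 counts used here. The same first and second places were seen in the liver labelled Crtc1-/-, where Ces1c was at 1227 and 1624 FPKM and Ces3a at 866 and 420.3 FPKM.

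In the eWAT labelled Crtc1+/+ the order was another one. Ces5a was highest at 439 and 555 FPKM, Ces1d was second at 83.5 and 100.3 FPKM, and the ranges of these 2 genes did not overlap with each other or with the next. Ces1c was at 43.9 and 6.06 FPKM, Ces3a at 29.5 and 4.15 FPKM and Ces1f at 15.8 and 16.95 FPKM, and these 3 overlapped. The other 5 members were at or below 7.89 FPKM in both libraries.

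The 2 libraries of the eWAT labelled Crtc1-/- had different make-ups. In replicate 1, Ces1d made up 77.1% and Ces1f 18.6% of the summed FPKM of the 10 genes. In replicate 2, Ces1c made up 40.4%, Ces3a 23.3% and Ces1d 18.5%, an order with Ces1c and Ces3a first as in liver, where Ces1c took 42.6% to 64.3% and Ces3a 16.6% to 32.2%. Ces5a made up 68.8% and 80.5% in the eWAT labelled Crtc1+/+, 0.982% and 0.0243% in the eWAT labelled Crtc1-/-, and at most 0.0134% in liver. All 10 genes together took 0.0945% of the counts in the eWAT labelled Crtc1-/- replicate 1 (Wilson 95% confidence interval 0.0931% to 0.0959%) and 0.310% in replicate 2 (0.308% to 0.313%). They took 0.118% and 0.132% in the eWAT labelled Crtc1+/+ and 0.423% to 0.634% in the liver libraries. Only counting error enters these intervals.

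**Figure D1:**
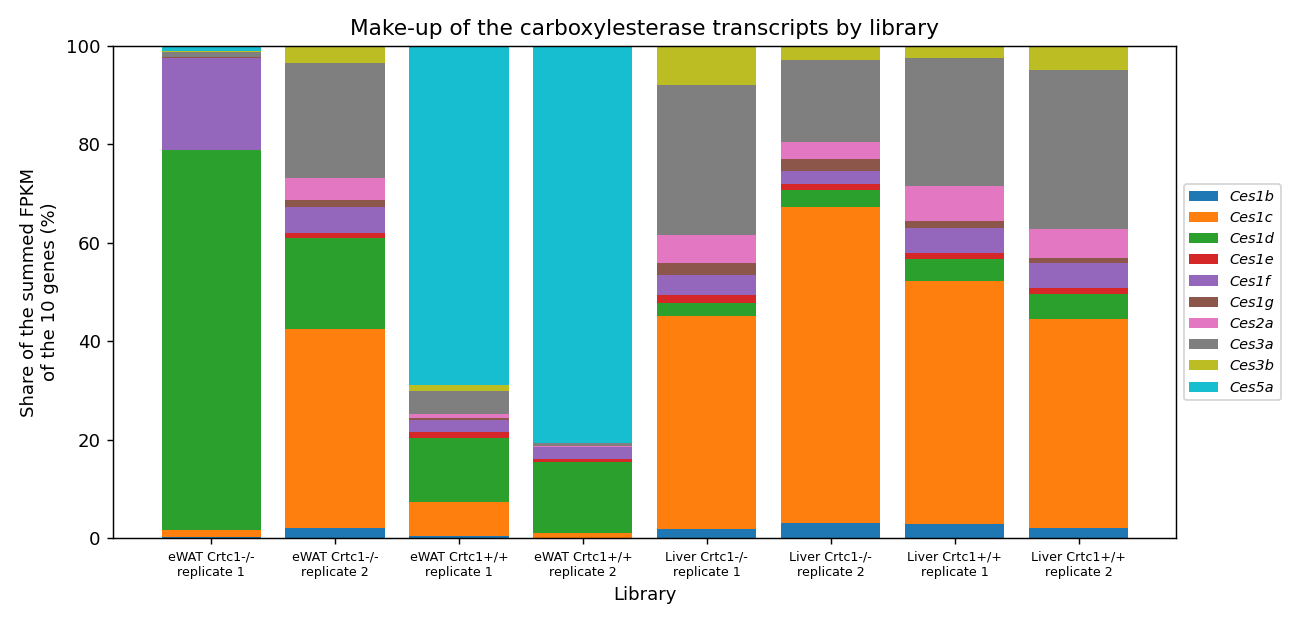
Stacked bars give, for each of the 8 libraries, the share of each gene in the summed FPKM of the 10 carboxylesterase genes (percent, 0 to 100). Ces5a fills 68.8% and 80.5% of the eWAT Crtc1+/+ bars, Ces1d 77.1% of eWAT Crtc1-/- replicate 1, and Ces1c is the largest block in eWAT Crtc1-/- replicate 2 and in all 4 liver bars.

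Between the genotypes in eWAT, Ces1d and Ces1f were higher and Ces5a was lower in the libraries labelled Crtc1-/-, and the other 7 members were not called by edgeR. This made 3 of 10 members, against 12.2% of all 15391 genes tested (6.65% higher and 5.54% lower). DESeq2 called these 3 and Ces1b, 4 of 10 members against 30% of all genes. The same 3 passed the threshold of the study's methods, an absolute log2 fold change over 1 with p under 0.01, in edgeR, against 15.9% of all genes. The study applied this threshold to limma results. Here limma on log2(FPKM + 1) and on log2(FPKM + 0.1) counted 3 members each (2498 and 2453 of 15391 genes). The groups did not overlap for the same 3 members, against 31.3% (higher) and 35.4% (lower) of all genes. The median log2 fold change was 3.57 over the 10 members and -0.05 over all genes. The median over the members rested on replicate 2 of Crtc1-/-, without which it was -1.46, while Ces1d, Ces1f and Ces5a kept their direction.

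Ces1d, the triacylglycerol hydrolase, was at 747 and 767 CPM in the eWAT labelled Crtc1-/- and at 134 and 166 CPM in the eWAT labelled Crtc1+/+. Both Crtc1-/- values lay far above both Crtc1+/+ values, and the replicates lay close together. The log2 fold change was 2.34 (standard error 0.35, 5.05-fold, adjusted p = 0.0260 in edgeR's quasi-likelihood test).

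Ces1f, a second triacylglycerol hydrolase of the Ces1 row, was at 175 and 216 CPM against 24.7 and 27.3 CPM. It showed the same separation, and its log2 fold change came to 2.91 (standard error 0.29, 7.52-fold, adjusted p = 0.0169 in edgeR's quasi-likelihood test). Without replicate 2 of the eWAT labelled Crtc1-/-, the library with the high hepatocyte markers, the log2 fold changes were 2.28 for Ces1d (adjusted p = 0.0142) and 2.72 for Ces1f (adjusted p = 0.00927) in the same edgeR test. Both genes were thus called with and without that library.

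The adipocyte markers moved with Ces1d and Ces1f. Of these 14 markers, 9 were called higher in the eWAT labelled Crtc1-/-, against 6.65% of all genes, and 0 lower. Their median log2 fold change was 3.69, and 3.86 without replicate 2. Per 1000 CPM of the summed adipocyte markers, Ces1d was at 16.95 and 30.1 CPM in the eWAT labelled Crtc1-/- and at 56.7 and 40.3 CPM in the eWAT labelled Crtc1+/+. On that scale Ces1d was lower, not higher, in both Crtc1-/- libraries. Ces1f was at 3.98 and 8.47 against 10.5 and 6.62 CPM per 1000, and its groups overlapped. The part of the adipocyte markers in the 2 rises was not tested.

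Ces5a was at 9.67 and 1.04 CPM in the eWAT labelled Crtc1-/- (176 and 15 counts) and at 741 and 984 CPM in the eWAT labelled Crtc1+/+ (15401 and 18990 counts). The log2 fold change was -7.32 (standard error 1.27, 160-fold lower, adjusted p = 0.0320 in edgeR's quasi-likelihood test). The 2 Crtc1-/- libraries differed from each other more than for Ces1d and Ces1f, but both lay far below the Crtc1+/+ libraries. It was -6.52 without replicate 2 and -9.68 without replicate 1 of the eWAT labelled Crtc1-/-. Leaving out either Crtc1+/+ library of eWAT left 0 of all genes called by edgeR, with Ces1d, Ces1f and Ces5a still at an unadjusted p under 0.05, as were 21.9% and 15.8% of all genes. The log2 fold changes were then 2.20 and 2.52 for Ces1d, 2.87 and 3.01 for Ces1f, and -7.59 and -7.08 for Ces5a.

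The epididymis markers fell with Ces5a: all 14 were called lower, against 5.54% of all genes. Their log2 fold changes ran from -13.92 to -6.97, with a median of -12.63. In the 2 libraries labelled Crtc1-/-, 5 and 3 of these markers were at or below the floor of 3 counts. The markers passed the filter through the libraries labelled Crtc1+/+, so these fold changes depend on the prior count and are no bounds. Gpx5, the glutathione peroxidase of the epididymis and the most abundant of these markers, was at 1.81 and 7.01 CPM in the eWAT labelled Crtc1-/- and at 40768 and 50602 CPM in the eWAT labelled Crtc1+/+. Per 1000 CPM of the summed epididymis markers, Ces5a was at 10.95 and 11.9 CPM in both eWAT libraries labelled Crtc1+/+, and at 381 and 68.2 CPM in the 2 labelled Crtc1-/-, where the summed markers were close to 0. Crisp1 alone, a sperm-coating protein singled out after its values were seen, gave 19.1 of the 25.4 CPM of replicate 1. The part of the epididymis markers in the fall of Ces5a was not tested.

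The other 7 members, Ces1b, Ces1c, Ces1e, Ces1g, Ces2a, Ces3a and Ces3b, were high in 1 eWAT library. Ces1c was at 12.96 and 1563 CPM in the eWAT labelled Crtc1-/- replicates 1 and 2, and at 65.5 and 9.33 CPM in the eWAT labelled Crtc1+/+. Ces3a was at 6.54 and 727 CPM against 35.7 and 6.22 CPM, and Ces2a was at 1.70 and 191 CPM against 9.34 and 1.30 CPM. In each case replicate 2 was the highest eWAT library and replicate 1 lay within the Crtc1+/+ range. Over the 7 genes, replicate 2 was 32.5 to 121 times replicate 1.

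Ces1b (2.69 and 87.3 CPM against 4.24 and 1.66 CPM), Ces1g, which is known for restraining hepatic lipid secretion (1.43 and 64.0 CPM against 4.33 and 0.363 CPM), and Ces3b (2.58 and 139 CPM against 12.7 and 1.19 CPM) had the same shape. Ces1e was at 1.15 and 42.0 CPM against 12.1 and 6.79 CPM, and its replicate 1 was the lowest of the 4 libraries. None of the 7 was called by edgeR: their log2 fold changes ran from 1.19 (Ces1e, standard error 1.45, adjusted p = 0.586) to 4.40 (Ces1c, standard error 2.20, adjusted p = 0.226) in edgeR's quasi-likelihood test. Ces1b, at 3.93 (standard error 1.62, adjusted p = 0.167) in that test, was called by DESeq2 (3.98, adjusted p = 0.0121). Without replicate 2, 0 of the 7 had a positive log2 fold change and they ran from -3.04 to -0.14. Without replicate 1, which left replicate 2 as the 1 library labelled Crtc1-/-, they ran from 2.16 to 5.40.

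**Figure D2:**
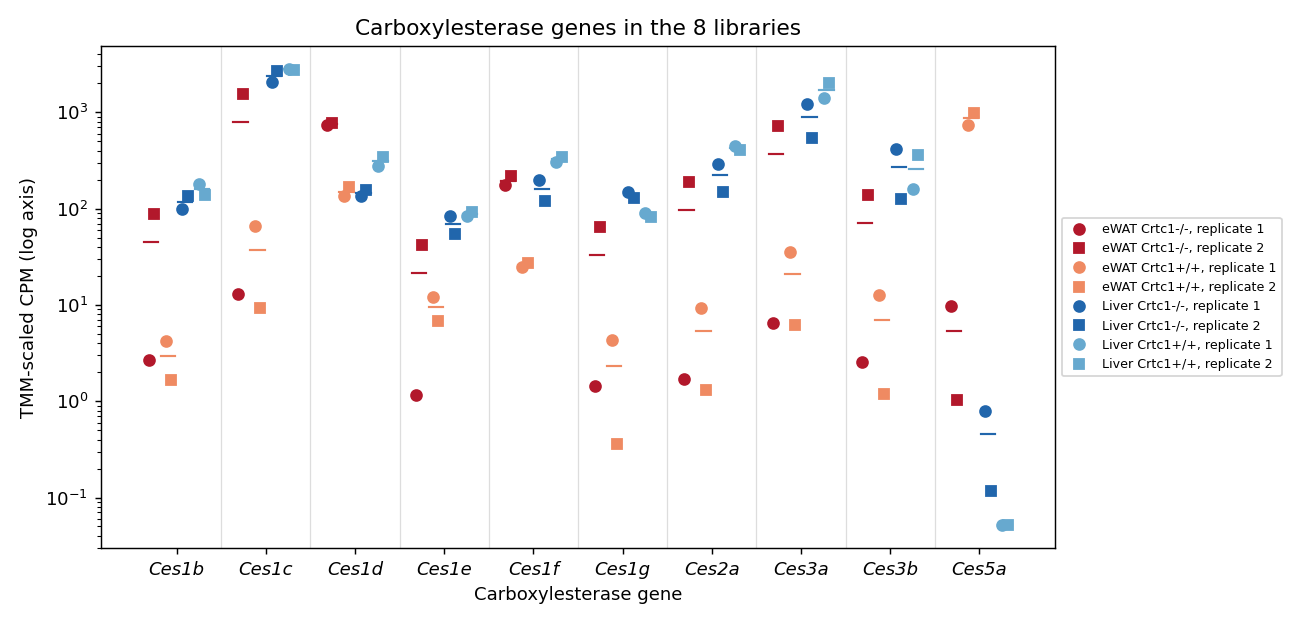
Points give CPM of each gene in the 8 libraries, TMM-scaled within each tissue, on a log axis, and short lines give the group means (n = 2). The points of eWAT and of liver are not on a common scale. Ces1d and Ces1f lie high in both eWAT Crtc1-/- libraries, Ces5a lies at 741 and 984 CPM in eWAT Crtc1+/+ and below 10 CPM elsewhere, and the other 7 genes lie high in eWAT Crtc1-/- replicate 2 and in liver.

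**Figure D3:**
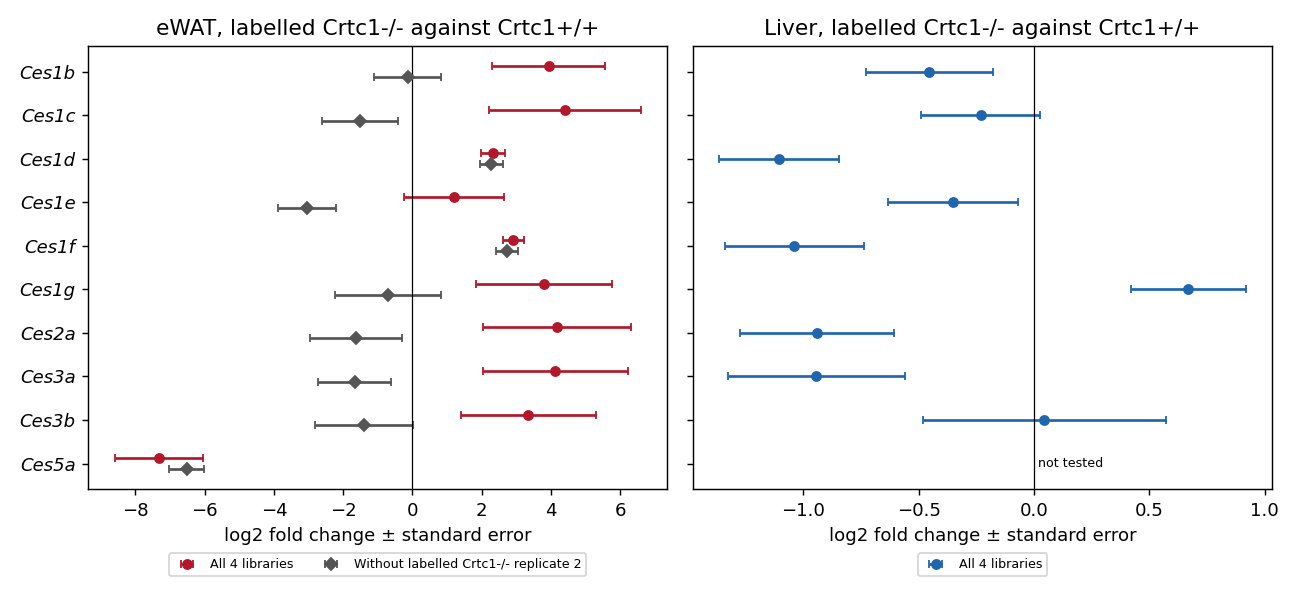
Log2 fold changes of the libraries labelled Crtc1-/- against Crtc1+/+ with standard errors from edgeR, in eWAT (left, with all 4 libraries and without Crtc1-/- replicate 2) and liver (right). In eWAT, Ces1d, Ces1f and Ces5a keep their place without replicate 2 whereas the other 7 genes move from above 0 to below 0, and Ces5a was not tested in liver.

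The hepatocyte markers were set beside these genes in every library. Per 1000 CPM of the 13 hepatocyte markers, all 7 genes lay within the range of the 4 liver libraries in replicate 2 of the eWAT labelled Crtc1-/-. Ces1c, for example, was at 12.2 per 1000 there and at 10.7 to 14.4 per 1000 in liver, and Ces3a was at 5.66 there and at 2.41 to 9.49 in liver. Ces1d lay outside that range at 5.97 per 1000 against 0.688 to 1.63 in liver, and Ces1f lay just above it at 1.68 against 0.526 to 1.63. In replicates 1 and 2 of the eWAT labelled Crtc1+/+, 5 and 3 of the 10 members lay within the liver range, 5 and 5 above it and 0 and 2 below it. The 2 below it were Ces1c (8.22 per 1000) and Ces1g (0.320 per 1000). In replicate 1 of the eWAT labelled Crtc1-/- all 7 genes lay below the liver range. There, 4982 of the 6049 CPM of the marker list came from Cyp2e1, a cytochrome P450 that was called higher in the eWAT labelled Crtc1-/- (log2 fold change 3.78, standard error 0.60).

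With Cyp2e1 left out of the list, a choice made after its values were seen, the marker sum was 1067 CPM in replicate 1 and 119925 CPM in replicate 2 of the eWAT labelled Crtc1-/-, and 5245 and 643 CPM in the eWAT labelled Crtc1+/+. Ces1c was then at 12.1 and 13.03 per 1000 in the eWAT labelled Crtc1-/-, at 12.5 and 14.5 per 1000 in the eWAT labelled Crtc1+/+ and at 11.3 to 15.2 per 1000 in liver. Ces2a and Ces3a were likewise within the liver range in all 4 eWAT libraries, with Ces3a at 6.12, 6.06, 6.81 and 9.67 per 1000 and Ces2a at 1.60, 1.59, 1.78 and 2.01 per 1000. Of the 7 genes, 3 (the eWAT labelled Crtc1-/- replicate 1), 7 (replicate 2), 4 and 5 (the eWAT labelled Crtc1+/+) lay within the liver range and 0 lay below it in any eWAT library. Ces1e was above it in 3 of the 4, at 1.08, 2.31 and 10.6 per 1000 against at most 0.466 in liver. Ces1d lay between 6.39 and 699.8 per 1000 in eWAT, above the liver range in all 4 libraries.

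**Figure D4:**
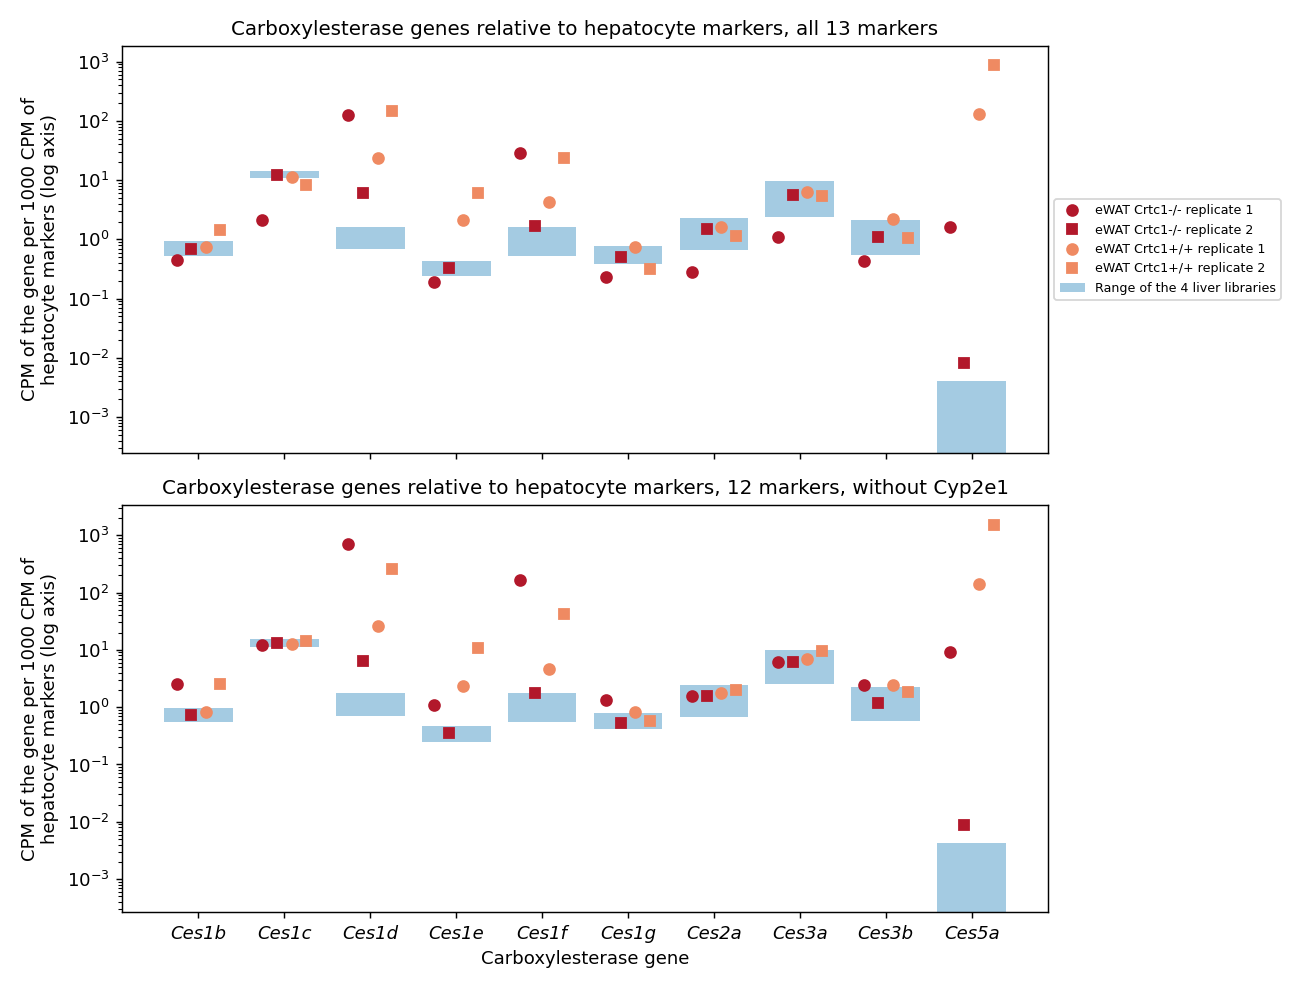
CPM of each gene per 1000 CPM of the summed hepatocyte markers in the 4 eWAT libraries (points, log axis), over the range of the 4 liver libraries (blue), with all 13 markers (top) and without Cyp2e1 (bottom). In the lower panel Ces1c, Ces2a and Ces3a lie within the liver range in all 4 eWAT libraries, and Ces1d lies above it in all 4.

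In liver, 9 of the 10 members passed the expression filter and 0 were called by edgeR's quasi-likelihood test between the genotypes, against 0.0854% of 11707 genes. At an unadjusted p under 0.05, 5 of the 9 members were counted by edgeR (17.3% of all genes), 5 by DESeq2 (14.3%) and 4 by limma (15.4%). The groups did not overlap for 8 members, of which 7 were lower in the libraries labelled Crtc1-/- (26.4% of all genes) and 1 was higher (25.8%). At the threshold of the study's methods, applied to edgeR values, 2 members were counted, Ces1d and Ces1f, against 4.27% of all genes. Limma counted 2 members on log2(FPKM + 1) (158 of 11707 genes) and 1 on log2(FPKM + 0.1) (393 of 11707 genes). The median log2 fold change was -0.45 over the 9 members and 0.00 over all genes.

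Ces1d was at 135 and 155 CPM in the liver labelled Crtc1-/- and at 280 and 344 CPM in the liver labelled Crtc1+/+. The difference was -1.10 on the log2 scale (standard error 0.26, adjusted p = 0.131 in edgeR's quasi-likelihood test). Ces1f was at 199 and 119 CPM against 308 and 345 CPM, with -1.04 (standard error 0.30, adjusted p = 0.173 in the same edgeR test). Both genes had their 2 lowest liver values in the libraries labelled Crtc1-/-, in the other direction from eWAT, and both were called by DESeq2 (adjusted p = 0.00579 and 0.0323), against 2.66% of all genes.

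Ces2a was at 294 and 149 CPM against 446 and 403 CPM, and Ces3a was at 1226 and 543 CPM against 1396 and 2006 CPM. Their log2 fold changes were -0.94 (standard error 0.33) and -0.94 (standard error 0.38), with adjusted p = 0.224 and 0.262 in edgeR's quasi-likelihood test. Replicate 2 of the liver labelled Crtc1-/- gave the lowest value of both. Without replicate 1 of that group, replicate 2 was its 1 library. The spread then came from the 2 libraries labelled Crtc1+/+, so the calls of that fit are not given.

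Ces1g was the member that lay higher, at 147 and 128 CPM against 90.9 and 82.3 CPM (log2 fold change 0.67, standard error 0.25, adjusted p = 0.239 in edgeR's quasi-likelihood test). Ces1b (100.2 and 135 CPM against 182 and 140 CPM), Ces1c (2068 and 2682 CPM against 2832 and 2738 CPM) and Ces1e (84.2 and 54.5 CPM against 84.3 and 92.4 CPM) lay between -0.45 and -0.23 on the log2 scale. Ces3b was at 411 and 125 CPM against 162 and 358 CPM, so that the first group spanned the whole range of the second. The ratio of Ces3a to Ces3b in FPKM was 3.89 and 5.75 in the liver labelled Crtc1-/- and 10.4 and 6.51 in the liver labelled Crtc1+/+. These values depend on how shared reads were divided. Ces5a had 15 and 2 counts in the liver labelled Crtc1-/- and 1 count in each library labelled Crtc1+/+, and the epididymis markers stood at 80.2 and 11.2 CPM against 2.26 and 2.20 CPM.

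The difference of the genotype effect between the tissues was tested in 1 fit of all 8 libraries, which share one estimate of the spread. Per the study's methods the liver and eWAT came from 2 mice per genotype, so the tissues appear to share animals, but the labels do not tie a library to a mouse. This test and the contrasts between tissues below treat the 8 libraries as independent. For 3 of the 10 members it was called, against 6.94% of 15587 genes. The effect in eWAT minus that in liver was 3.37 for Ces1d (standard error 0.47, adjusted p = 0.0126), 3.88 for Ces1f (standard error 0.54, adjusted p = 0.0127) and -10.53 for Ces5a (standard error 1.79, adjusted p = 0.0208), all on the log2 scale in edgeR's quasi-likelihood test. The Ces5a value rests on liver libraries at 1 count and depends on the prior count, so it is no bound. DESeq2 called the same 3 and Ces1b (4.43, adjusted p = 0.0310), against 13.2% of all genes. With the mouse as a block, taking the same replicate number as the same mouse, Ces1d, Ces1f and Ces5a were called, against 5.94% of all genes. Without replicate 2 of the eWAT labelled Crtc1-/-, Ces1c, Ces1e, Ces1g, Ces2a, Ces3a and Ces3b changed sign. They then lay between -2.71 (Ces1e) and -0.77 (Ces2a) on the log2 scale. Leaving out any 1 library of Crtc1+/+ left 0 members called in this comparison, with 3 at an unadjusted p under 0.05, as were 24.3%, 18%, 17.7% and 19.6% of all genes without eWAT replicates 1 and 2 and liver replicates 1 and 2. Leaving out a liver library labelled Crtc1-/- left 1 (Ces1f without replicate 1 and Ces5a without replicate 2), against 1.17% and 1.46% of all genes. Leaving out replicate 1 of the eWAT labelled Crtc1-/- gave 9, against 13.9%.

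The tissue contrast within a genotype depends on how eWAT and liver were scaled to each other. TMM over all 8 libraries raised liver CPM against eWAT CPM by 1.26 on the log2 scale relative to the scale within tissues, and the median over all genes of eWAT against liver was 0.61 in Crtc1+/+ and 0.20 in the libraries labelled Crtc1-/-. Within Crtc1+/+ all 10 members were called, against 54.9% of 15587 genes. Of these, 9 were lower in eWAT than in liver (19.8% of all genes) and Ces5a was higher (35% of all genes). The smallest of the 9 differences was that of Ces1d, at -2.28 (standard error 0.34, adjusted p = 0.00245 in edgeR's quasi-likelihood test), followed by Ces1e at -4.43 and Ces1f at -4.87. The other 6 lay between -7.54 (Ces3a) and -6.39 (Ces1g). Ces5a was at least 2382-fold higher in eWAT, against the mean floor of 3 counts per liver library. Leaving out a Crtc1+/+ library left 5 members called without eWAT replicate 1 (36.9% of all genes), 3 without eWAT replicate 2 (31.5%), and 4 without liver replicate 1 (26%) or 2 (27.4%), and Ces1d, Ces1f and Ces5a were among them each time. With the mouse as a block 7 members were called, against 54.7% of all genes, and Ces1e, Ces3a and Ces3b were not (adjusted p = 0.0628, 0.0577 and 0.0816 in edgeR's quasi-likelihood test).

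Within the libraries labelled Crtc1-/-, Ces1d was the 1 member called, against 27.8% of all genes, and it was higher in eWAT (log2 fold change 1.09, standard error 0.32, adjusted p = 0.0454 in edgeR's quasi-likelihood test). On the scale over all 8 libraries it was at 437 and 517 CPM in eWAT and at 210.0 and 238 CPM in liver. Ces1f was at 103 and 145 CPM against 309 and 182 CPM on that scale (-0.98, standard error 0.37, adjusted p = 0.0865). The 7 members that were high in replicate 2 lay between -3.27 and -2.40, and without that library these 7 and Ces5a were called, against 36.2% of all genes, and Ces1d was not. Ces1d was not called without any 1 of the other 7 libraries either. With the mouse as a block Ces1d was at 1.09 and was not called (adjusted p = 0.0543 in edgeR's quasi-likelihood test), and Ces5a was the 1 member called (2.11, adjusted p = 0.0162), against 28.9% of all genes. DESeq2 called Ces1b, Ces1d, Ces1e, Ces1f and Ces1g, against 33% of all genes. The contrasts within Crtc1+/+ and within Crtc1-/- compare different libraries. Both contrasts and the test between tissues come from 1 fit of all 8 libraries and share its scaling and spread.

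The balance of Ces1d and Ces1f differed between the tissues. The ratio of Ces1d to Ces1f in FPKM was 4.15 and 3.46 in the eWAT labelled Crtc1-/- and 5.27 and 5.92 in the eWAT labelled Crtc1+/+. In liver it was 0.661 and 1.27 in libraries labelled Crtc1-/- and 0.885 and 0.972 in those labelled Crtc1+/+. All 4 eWAT values lay above all 4 liver values. The ratio of Ces1c to Ces1b in FPKM was 16.4 to 21.7 in liver, 18.8 in the eWAT labelled Crtc1-/- replicate 2 and 16.3 in the eWAT labelled Crtc1+/+ replicate 1, and 5.05 and 5.94 in the other 2 eWAT libraries.

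Over the 8 libraries the 7 genes other than Ces1d, Ces1f and Ces5a followed one another, with Pearson r of log2 CPM from 0.926 to 0.999 over their 21 pairs. The r of Ces1b and Ces1c was 0.994, below the 0.999 of Ces2a and Ces3a, and that of Ces1d and Ces1f was 0.802. These values describe 8 libraries of 2 tissues and 2 genotypes, in which all genes share library and depth. Among all other genes, Ces1c was closest to Cyp4a10 (r = 0.9999) and Cyp2d10, Ces1b to Slc17a1 (r = 0.9996) and Soat2, and Ces2a (r = 0.9996) and Ces3a (r = 0.9991) both to Hgd, followed by Cpn2 and Uox. Ces1e was closest to Glt1d1 (r = 0.997) and Gjb1, Ces1g to Rdh16f2 (r = 0.999) and Haao, and Ces3b to Gls2 (r = 0.997) and F11. Ces1d was closest to Tsc22d3 (r = 0.983) and Ywhag, Ces1f to Decr1 (r = 0.998) and Cpt2, which act in fatty acid oxidation, and Ces5a to Serpina1f (r = 0.998) and Emid1.

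The 9 other carboxylesterase genes of the table were low except for Ces2e and Ces2g. Ces2e was at 2.31 and 89.8 CPM in the eWAT labelled Crtc1-/-, 7.75 and 3.94 CPM in the eWAT labelled Crtc1+/+, and 73.1 to 220 CPM in liver, which is the shape of the 7 members above. Ces2g was at 9.89 and 25.1 CPM, 6.74 and 3.83 CPM, and 34.5 to 45.9 CPM. Ces1a, Ces1h, Ces2b, Ces2c, Ces2f, Ces2h and Ces4a did not exceed 13.4 CPM in any library. Of the 9, 4 were tested in eWAT and 5 in liver, and 0 were called by edgeR's quasi-likelihood test in either tissue, where 1 in each was at an unadjusted p under 0.05 (Ces2g in eWAT and Ces2e in liver), as were 33.3% and 17.3% of all genes.

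Other hydrolases of esters and lipids, a list of 25 genes, included several that moved with Ces1d and Ces1f in eWAT. Among the 24 tested, in the libraries labelled Crtc1-/-, 6 were called higher and 1 was called lower, against 6.65% and 5.54% of all genes. The median log2 fold change was 2.22 against -0.05 over all genes. Without replicate 2 of Crtc1-/- the median was 0.73. Pnpla2, the adipose triglyceride lipase, was at 5525 and 3233 CPM against 314 and 392 CPM, a log2 fold change of 3.63 (standard error 0.57), and Mgll, the monoacylglycerol lipase, rose by 3.20 on the log2 scale (standard error 0.47). Lpl, lipoprotein lipase, was at 2.44 (adjusted p = 0.0519) and was not called, and Lcat, the cholesterol acyltransferase of plasma, was at 10.2 and 653 CPM against 32.6 and 3.63 CPM and was not called. In liver 1 of 22 was called, against 0.0854% of all genes, and the median was -0.17. The 1 called was Lpl, higher at 38.3 and 38.4 CPM against 7.54 and 8.34 CPM (log2 fold change 2.27, adjusted p = 0.0332 in edgeR's quasi-likelihood test).

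Genes of very-low-density lipoprotein assembly, in which Ces1d is known to take part, were 8 of 9 tested in eWAT. The 2 called higher, against 6.65% of all genes, were Dgat2 (log2 fold change 2.64) and Dgat1 (2.64), which complete triglyceride synthesis. Dgat1 is named because it was called. The median was 2.64. Without replicate 2 of Crtc1-/- the median was -0.25. Apob was at 6.70 and 653 CPM against 34.7 and 4.35 CPM and Cideb at 8.18 and 290.0 CPM against 13.3 and 1.40 CPM, and these 2 were not called, while Surf4 was at -0.18. In liver 0 of 9 were called by edgeR (median -0.26), with 2 at an unadjusted p under 0.05, as were 17.3% of all genes. The 3 receptors that return proteins with a retention signal to the endoplasmic reticulum, Kdelr1, Kdelr2 and Kdelr3, lay at 0.57, -0.66 and 0.11 in eWAT and 0 were called, with 0 at an unadjusted p under 0.05. In liver 2 were tested, 0 were called and the median was 0.00.

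Of 9 transcription factors known to regulate carboxylesterase genes, all were tested in eWAT and 3 were called higher there, against 6.65% of all genes. These were Cebpa (log2 fold change 3.10), Nr1h3, the oxysterol receptor LXR alpha (3.41), and Pparg (3.52), which drives adipocyte differentiation and is named because it was called. The median was 3.41, and 0.36 without replicate 2 of Crtc1-/-. Hnf4a, the hepatocyte nuclear factor, was at 19.7 and 290.0 CPM against 19.8 and 5.49 CPM and was not called, and Cebpb was at 0.92. In liver 0 of 9 were called by edgeR, with 1 at an unadjusted p under 0.05, as were 17.3% of all genes, and the median was 0.09. Among the remaining marker lists in eWAT, all 5 endothelial markers and 2 of 5 macrophage markers were called higher. Of 6 mesothelial and fibroblast markers 1 was called higher and 1 lower. Of all genes, 6.65% were called higher and 5.54% lower. In liver, 0 of the 13 hepatocyte, 9 adipocyte, 5 endothelial, 5 macrophage, 5 mesothelial and fibroblast and 3 epididymis markers tested were called by edgeR. Of these lists, 4, 4, 2, 0, 2 and 3 markers were at an unadjusted p under 0.05, as were 17.3% of all genes.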

How the data were processed

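RNA-seq of liver and eWAT from male mice labelled Crtc1-/- or Crtc1+/+ (2 each) was analysed from the 2 tables that the authors deposited, and groups and replicate numbers came from the sample labels. The authors deposited estimated counts per gene, not normalized, of which 12 of the 80 values of the members were not whole numbers. They also deposited FPKM, scaled by transcript length and library total. The submitters' processing notes name HISAT, Bowtie2 and GRCm38.p6, without versions. The counting tool and annotation are not given in the sources used here.

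Counts were rounded, filtered by filterByExpr, scaled by TMM within each tissue (over all 8 libraries for contrasts that span tissues) and tested by edgeR 4.0.16 in R 4.3.3. A standard error is the absolute log2 fold change over the square root of the F statistic. Alternatives were DESeq2 1.42.0, RLE and upper-quartile factors, library totals, no filter, limma 3.58.1 on quantile-normalized log2(FPKM + 1) and log2(FPKM + 0.1), the replicate number as a block, the mouse as a block (genotype and number, added after seeing the data), all 8 libraries in 1 fit, and each library left out. Log2 CPM for correlations used a prior count of 2. The fits were tested on simulated data. Between 16560070 and 19721464 counts per library, 3 counts are 0.144 to 0.208 CPM on the scale used.

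The members, gene lists and tests were chosen with earlier results of these data known. Named genes were the 10 members, all other Ces genes, the 2 genes closest to each member, at most 4 genes of each list (those with the highest mean CPM), and Crtc1. Beyond these, Dgat1 and Pparg were named because they were called, and Cyp2e1 and Crisp1 after their values were seen. Gene positions came from GENCODE for GRCm38 and regions before starts from RefSeq. Windows of 50 nt were compared with all transcripts of the other Ces genes. Figures were drawn with matplotlib 3.10.9.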

Additional observations from a re-analysis of the deposited data

Results flagged for a closer look

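For 3 of the 10 members a test of the difference of the genotype effect between the tissues was called, against 6.94% of 15587 genes. It was edgeR's quasi-likelihood test with the 8 libraries in 1 fit. The effect in eWAT minus that in liver was 3.37 on the log2 scale for Ces1d, from 2.34 in eWAT and -1.10 in liver. It was 3.88 for Ces1f, from 2.91 in eWAT and -1.04 in liver. For Ces5a it was -10.53, from -7.32 in eWAT and 15, 2, 1 and 1 counts in the 4 liver libraries. Ces5a did not pass the expression filter in liver and entered this fit through its eWAT counts. Its value depends on the prior count and is no bound. In eWAT both libraries labelled Crtc1-/- were higher than both labelled Crtc1+/+ for Ces1d and Ces1f, and in liver both were lower, although neither liver difference was called by that test within liver. Per 1000 CPM of the summed adipocyte markers, Ces1d was lower in both eWAT libraries labelled Crtc1-/- (16.95 and 30.1 against 56.7 and 40.3 CPM). The Ces1f groups overlapped on that scale. The part of the adipocyte markers in these differences was not tested.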

How the results depend on the processing

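Under the alternatives, 22 values of single members changed sign. In eWAT, leaving out replicate 2 of Crtc1-/- gave -0.14 (Ces1b), -1.51 (Ces1c), -3.04 (Ces1e), -0.69 (Ces1g), -1.62 (Ces2a), -1.67 (Ces3a) and -1.41 (Ces3b), and Ces1e was also at -0.16 with log2(FPKM + 0.1) and -0.29 with the replicate block. Leaving out other eWAT libraries took these genes up to 4.89 (Ces1b), 6.51 (Ces1c), 2.16 (Ces1e), 6.57 (Ces1g), 6.32 (Ces2a), 5.99 (Ces3a) and 5.99 (Ces3b). In the comparison of the genotype effect between tissues the same omission gave -1.37 (Ces1c), -2.71 (Ces1e), -1.45 (Ces1g), -0.77 (Ces2a), -0.80 (Ces3a) and -1.54 (Ces3b), and other omissions gave up to 6.67, 2.53, 5.82, 7.17, 6.86 and 5.87. Ces3b in liver was at -0.02 and -0.0205 with log2(FPKM + 1) and log2(FPKM + 0.1), -0.0858 with the replicate block, -1.05 without Crtc1-/- replicate 1 and -0.43 without Crtc1+/+ replicate 1, and up to 0.72 without Crtc1+/+ replicate 2. Within Crtc1-/-, Ces1f was at 0.11 with library totals, and Ces5a at -0.0211 without eWAT replicate 1 and up to 4.11 without liver replicate 1.

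The 3 members called in eWAT were 0 with the replicate block, where 0 of all genes were called, and 4 with DESeq2 (30% of all genes). They were 0 without either Crtc1+/+ library, where 0 of all genes were called. At the threshold of the study's methods they were 3 with edgeR and limma and 4 with DESeq2 (4039 of 15391 genes). The 0 called in liver were 2 with DESeq2 (311 of 11707 genes) and 1 without a filter (301 of 15896 genes). The 2 past the study's threshold in liver were 1 with upper-quartile factors (541 of 11707 genes), library totals (524) or log2(FPKM + 0.1) (393). They were 0 in 1 fit of all 8 libraries (245 of 15587 genes). Leaving out a library gave 0 to 9 for the comparison of effects between tissues, 3 to 10 within Crtc1+/+ and 0 to 8 within Crtc1-/-, where DESeq2 gave 5, library totals 2 and no filter 0. Within a tissue, deviations of same-numbered libraries correlated at 0.0086 in eWAT and 0.0516 in liver. Between tissues they correlated at 0.152 within Crtc1+/+ and 0.0356 within Crtc1-/-, and at 0.126 and 0.0911 across genotypes. The replicate numbers were therefore not taken as pairs, although the tissues appear to share mice. With the replicate block 3 members were called for the comparison of effects (1746 of 15587 genes), 9 within Crtc1+/+ (9226 genes) and 1 within Crtc1-/- (5165 genes). With a block by mouse, added after seeing the data, 3, 7 and 1 were called, against 5.94%, 54.7% and 28.9% of all genes. The 1 within Crtc1-/- was then Ces5a in place of Ces1d. The cause of these changes was not tested.

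Library totals moved the median of all genes in eWAT to -0.35 and upper-quartile factors to -0.25, from -0.05, and with either Ces1d, Ces1f and Ces5a were called in the same direction. Of all genes called in eWAT, 1023 of 1875 were higher with TMM, 744 of 1740 with upper-quartile factors and 587 of 1662 with library totals. Depth limits Ces5a in liver. Shared reads limit Ces3a, Ces3b, Ces1b and Ces1c.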
